A study of Mus musculus with 36 samples.

Results

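The integrated stress response was followed through 8 genes of the 24127 in the deposited expression table, taken by their symbols: Ppp1r15a, Atf4, Ddit3, Xbp1, Trib3, Sesn2, Asns and Chac1. In this pathway a kinase that senses double-stranded RNA (PKR, encoded by Eif2ak2), unfolded protein in the endoplasmic reticulum (PERK, Eif2ak3), uncharged tRNA (GCN2, Eif2ak4) or lack of haem (HRI, Eif2ak1) phosphorylates the alpha subunit of the translation initiation factor eIF2. Bulk protein synthesis then falls while the mRNA of the transcription factor ATF4 is translated more, and ATF4 with its partners switches on target genes. PPP1R15A (GADD34) brings protein phosphatase 1 to eIF2alpha and so closes the loop, and XBP1 serves the neighbouring IRE1 arm of the unfolded protein response. Myeloid cells are known to induce Ppp1r15a when they sense double-stranded or viral RNA.

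Expression was measured by RNA sequencing in dendritic cells grown from C57BL/6 mouse bone marrow with GM-CSF and selected for CD11c. The cells came from wild-type mice (WT) or LGP2-/- mice (Dhx58-/-, here KO), which lack LGP2, an RNA-binding relative of the sensor RIG-I. Cells received a transfection of PAMP RNA (20 ng), which is the hepatitis C virus poly-U/UC RNA that RIG-I senses, or served as mock controls, and were collected at 1, 3 or 6 h. Each of the 12 groups held 3 libraries, so that a response below is PAMP RNA against mock at the same time and genotype and includes whatever the transfection itself did. All values are the authors' normalized counts, reads divided by a size factor for each library, and changes are differences of log2(normalized count + 1) with their standard error (SE). A gene passed the test at a limma p-value under 0.05 after Benjamini-Hochberg adjustment over 11853 genes, those whose normalized counts averaged 10 or more.

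The libraries held 4740909 to 14255730 reads in genes. The label check on the deleted gene did not come out cleanly. Dhx58 spanned 83.6 to 362 normalized counts in the 9 WT mock libraries and 109 to 808 in the 9 KO mock libraries, which goes against the KO label, whereas with PAMP RNA it reached 3066 in WT and 1012 in KO libraries. WT and KO therefore stand for libraries labelled so, and every genotype direction below rests on that label. The dendritic cell marker Itgax (CD11c) lay between 2354 and 3441 in all libraries. The dendritic cell genes Flt3 and Cd209a were low, with means of 9.26 and 7.58, and the macrophage genes Mrc1 and C1qa were present, with means of 1796 and 2742. The sum of 6 neutrophil and progenitor markers was at most 237 and that of 3 plasmacytoid dendritic cell markers at most 82.6, nearly all of the latter from Ccr9 (mean 30.6), as Siglech had a mean of 0.366. Markers of T and NK cells, mast cells and erythroid cells were at or near 0. In bulk samples like these, fewer cells of a type and less RNA per cell cannot be told apart.

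Levels of the 8 genes spanned a wide range. Per kilobase of annotated exon, the mean normalized count over all libraries was 930 for Atf4, 642 for Xbp1, 430 for Ppp1r15a, 140 for Sesn2, 91.8 for Ddit3, 32.6 for Trib3, 28.2 for Asns and 2.74 for Chac1. Atf4 lies on chromosome 15 from 80255184 to 80257541 on the plus strand of GRCm38, Xbp1 on chromosome 11 from 5520659 to 5525893 (plus), and Ppp1r15a on chromosome 7 from 45522916 to 45526268 (minus). Sesn2 lies on chromosome 4 from 132492032 to 132510501 (minus), Ddit3 on chromosome 10 from 127290774 to 127296288 (plus), Trib3 on chromosome 2 from 152337422 to 152344032 (minus), Asns on chromosome 6 from 7675169 to 7693254 (minus) and Chac1 on chromosome 2 from 119351229 to 119354381 (plus). The libraries do not mark the strand, so reads from overlapping genes cannot be told apart. Ddit3 shares 68 bases with Mars on the other strand and 2925 bases with an annotated gene of its own name, and Ppp1r15a shares 717 bases with Tulp2, whose mean normalized count was 3.66. Sesn2 holds 6089 bases of Gm12981. Chac1 had 178 reads in all 36 libraries and was not tested with the other 7 genes.

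ATF4 binds the C/EBP-ATF response element of its targets, and the promoters of the 8 genes were searched for its core. RefSeq promoters of the GRCm38.p6 build, 250 bases before to 50 bases after the annotated start, matched all 8 genes by symbol. The core TGATGNAA, searched on both strands, was found in 3 of them, Trib3, Asns and Chac1, against 3.97% of all 32851 promoters. The cAMP response element TGACGTCA, which ATF and CREB factors can bind, was found in Ppp1r15a alone among the 8, against 1.79% of all promoters. The endoplasmic reticulum stress element (CCAAT, any 9 bases, CCACG) was found in none of the 8 and in 0.119% of all promoters. No motif was found in the windows of Atf4, Ddit3, Sesn2 or Xbp1. The 3 promoters printed here belong to the gene with the largest response and to 2 targets that hold the core yet fell or did not pass the test, and each runs from 250 bases before to 30 bases after the start, 5′ to 3′ along the gene, with the match in capitals. The match starts at position -12 in Ppp1r15a (chr7:45526239-45526518, minus strand), at position 15 after the start in Trib3 (chr2:152344031-152344310, minus) and at position -23 in Asns (chr6:7693180-7693459, minus). In Trib3 the core reads on the opposite strand.
Ppp1r15a: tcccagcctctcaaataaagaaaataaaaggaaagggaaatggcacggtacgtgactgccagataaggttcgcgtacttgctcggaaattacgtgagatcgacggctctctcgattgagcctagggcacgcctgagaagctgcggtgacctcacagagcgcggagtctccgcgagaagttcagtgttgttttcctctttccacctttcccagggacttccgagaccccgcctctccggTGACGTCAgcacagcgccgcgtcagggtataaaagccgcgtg
Trib3: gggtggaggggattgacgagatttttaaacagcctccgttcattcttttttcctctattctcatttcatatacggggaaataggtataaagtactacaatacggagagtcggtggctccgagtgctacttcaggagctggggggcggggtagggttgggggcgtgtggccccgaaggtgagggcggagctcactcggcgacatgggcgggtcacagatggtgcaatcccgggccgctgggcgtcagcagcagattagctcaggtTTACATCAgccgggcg
Asns: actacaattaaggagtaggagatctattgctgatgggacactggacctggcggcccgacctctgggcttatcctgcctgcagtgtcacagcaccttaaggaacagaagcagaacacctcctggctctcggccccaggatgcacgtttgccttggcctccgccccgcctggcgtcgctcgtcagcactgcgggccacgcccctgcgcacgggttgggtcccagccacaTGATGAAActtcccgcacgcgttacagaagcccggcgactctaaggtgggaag
A match is a stretch of letters and not a bound site, and these 3 genes did not move alike: Ppp1r15a rose from 1 h, Trib3 fell at 3 h, and Asns passed the test in no response.

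**Figure D1:**
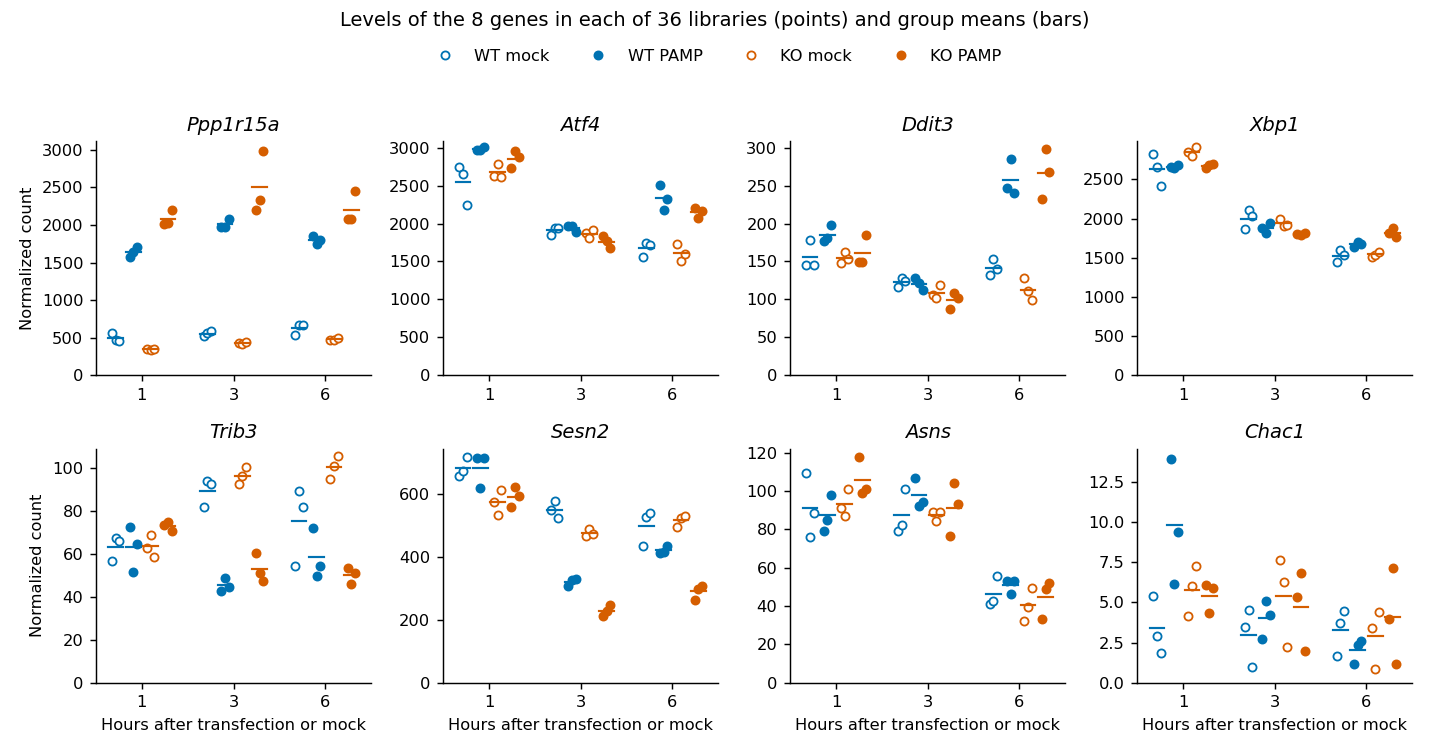
Normalized count (y axis, linear from 0, own scale for each gene) of the 8 genes against time in hours (x axis); open circles are mock and filled circles PAMP RNA libraries, blue WT and orange KO, and short bars are means of 3 libraries. Ppp1r15a is above mock at every time, Ddit3 and Atf4 separate at 6 h, and Trib3 and Sesn2 drop below mock at 3 h.

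At 1 h few genes of any kind had changed, and Ppp1r15a was among them. In WT cells 2 of the 7 tested genes rose at 1 h and none fell, where 0.945% of all tested genes passed the test, 0.801% upward and 0.143% downward. In KO cells 1 rose and none fell, where 1.36% of all passed, 1.19% upward and 0.169% downward. At 3 h 1 rose and 2 fell in each genotype. Of all tested genes 41.6% passed in WT cells at 3 h, 19.6% upward and 22.0% downward, and 50.6% in KO cells, 23.8% upward and 26.9% downward. At 6 h 4 rose and 2 fell in each genotype. Of all tested genes 65.4% passed in WT cells at 6 h, 32.1% upward and 33.3% downward, and 71.7% in KO cells, 35.1% upward and 36.5% downward. The count of members called at 3 h depends on scaling: it was 5 in each genotype after quantile normalization, and 5 in WT and 6 in KO cells at equal totals. With so many genes changed at 3 and 6 h, the count of members at those times is close to the background and is no result in itself, so the genes are described one by one. The sum of 5 macrophage markers moved with the responses. It was 6908 to 7436 in WT mock and 6286 to 6907 in WT PAMP libraries at 1 h, 5824 to 6231 and 8527 to 8661 at 3 h, and 6253 to 6538 and 11890 to 11930 at 6 h. In KO cells it was 6896 to 7006 and 6191 to 6680 at 1 h, 5118 to 5316 and 9359 to 9553 at 3 h, and 5222 to 5450 and 12710 to 13900 at 6 h. At 6 h 3 of the 5 rose in each genotype, and 2 fell in WT and 1 in KO cells: Fcgr1, a receptor for antibodies and a known interferon-induced gene, rose by 3.56 in WT and 4.15 in KO cells (SE 0.07 each), and Emr1, which encodes the macrophage marker F4/80, changed by -0.55 and -0.34 (SE 0.06 each). The sum of the plasmacytoid markers also rose, from 41.0 to 52.0 in WT mock to 68.8 to 82.6 in WT PAMP libraries at 6 h, and that of the neutrophil markers in KO cells, from 109 to 120 in mock to 182 to 209 with PAMP RNA at 6 h. The part of these marker changes in the responses was not tested. Over all genes the split depends on scaling: 47.1% of WT calls at 3 h were higher as deposited, 34.2% after quantile normalization and 23.0% after scaling to equal totals, and at 6 h 49.0%, 39.8% and 20.8%. In KO cells the 3 h shares were 47.0%, 34.9% and 20.8%, those of 6 h 49.0%, 39.8% and 20.2%. The median change of all tested genes, near 0 as deposited, became -0.20 and -0.39 at equal totals in WT cells at 3 and 6 h and -0.28 and -0.51 in KO cells.

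Ppp1r15a, the phosphatase subunit that reverses eIF2alpha phosphorylation, had the largest response of the 7 tested genes at every time in both genotypes. At 1 h the WT mock libraries held 567, 469 and 455 normalized counts and the WT PAMP libraries 1570, 1638 and 1706. The KO mock libraries at 1 h held 344, 337 and 350 and the KO PAMP libraries 2019, 2022 and 2205. Every PAMP library lay far above every mock library, and the KO libraries were the lowest of the mock and the highest of the PAMP libraries. This was a rise of 1.72 in WT (SE 0.08, 3.31-fold, adjusted p = 5.57e-22) and 2.59 in KO cells (SE 0.08, 6.04-fold, adjusted p = 5.07e-29). At 3 h the WT libraries held 523, 562 and 583 without and 1971, 1980 and 2085 with PAMP RNA, and the KO libraries 434, 412 and 448 without and 2200, 2328 and 2981 with it. At 6 h WT cells held 537, 668 and 674 against 1859, 1742 and 1794, and KO cells 469, 466 and 503 against 2076, 2076 and 2451. The response thus lasted over the time course, at 1.85 and 1.53 in WT and 2.52 and 2.19 in KO cells at 3 and 6 h (SE 0.08 each), and groups did not overlap at any time. From 1 to 3 h the KO response changed by -0.07 (adjusted p = 0.665) on the deposited scale. That change was -0.44 (adjusted p = 0.00184) after quantile normalization and -0.35 (adjusted p = 0.00728) at equal totals. The median of all tested genes was -0.10 and -0.29 under these other scalings. From 3 to 6 h the response shrank on the deposited scale by a difference of -0.33 in each genotype (SE 0.11, adjusted p = 0.0223 in WT and 0.0179 in KO). That KO decline was -0.20 (adjusted p = 0.146) without KO PAMP 3 h replicate 3, the library with 2981, and just missed the threshold without KO mock 6 h replicate 3 or KO PAMP 6 h replicate 1 or 2 (adjusted p from 0.0519 to 0.0542). The WT decline missed it without WT mock 3 h replicate 1, WT PAMP 3 h replicate 3 or WT mock 6 h replicate 2 or 3 (adjusted p from 0.0561 to 0.0803), and neither decline passed without the filter on low counts (adjusted p = 0.0616 in WT and 0.0515 in KO).

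The response of Ppp1r15a was larger in KO than in WT cells at each time. KO exceeded WT by 0.87 at 1 h, 0.67 at 3 h and 0.67 at 6 h (SE 0.11 each), with adjusted p-values of 7.16e-06, 0.000136 and 5.8e-05. Ppp1r15a was the only member whose response differed at 1 or 3 h, 1 of 7 against 0.118% of all tested genes at 1 h and 3.14% at 3 h, where 2.58% of all were higher and 0.557% lower in KO cells. At equal totals 2 members differed at 3 h. Of all genes that differed at 3 h, 82.3% were higher in KO cells as deposited, 64.3% after quantile normalization and 48.5% at equal totals. On the deposited scale the larger part of the difference lay in the controls at each time. Among mock libraries Ppp1r15a was lower in KO than in WT cells, by -0.52, -0.37 and -0.38 at the 3 times (SE 0.08 each, adjusted p = 4.05e-06, 0.00134 and 0.000809). With PAMP RNA every KO library lay above every WT library of its time, a gap that was not tested by itself. The genotypes also differed in the sum of 7 dendritic cell and antigen presentation markers, which was 43270 to 44740 in WT and 28410 to 31600 in KO mock libraries at 1 h, 41940 to 42950 and 28100 to 30170 at 3 h, and 49800 to 51280 and 36300 to 37100 at 6 h. Most of that sum came from Cd74 and MHC class II genes, and its part in the genotype differences was not tested.

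**Figure D2:**
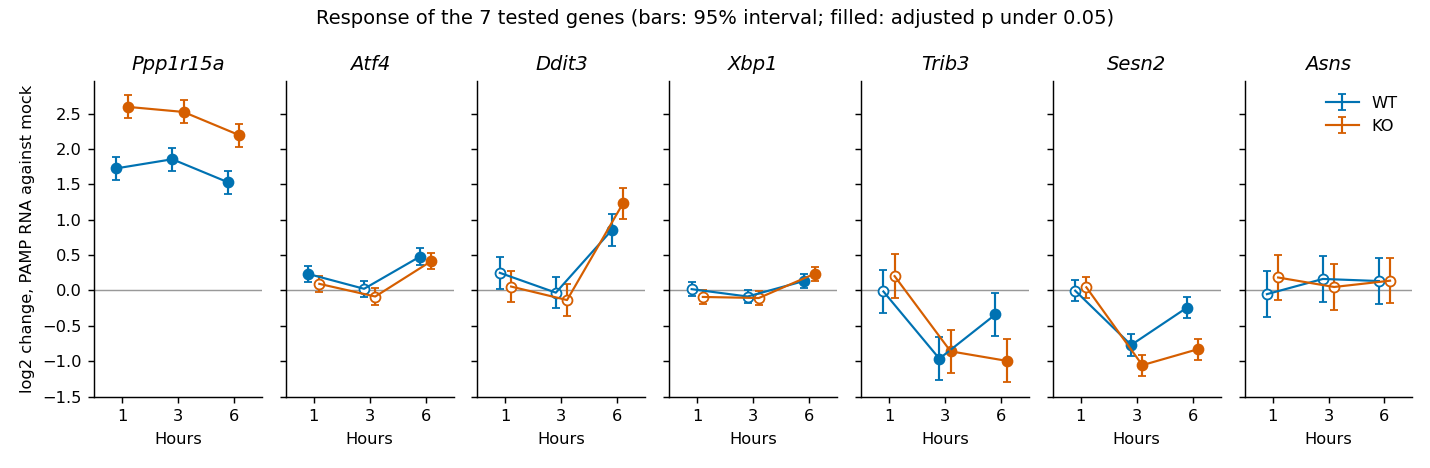
Response (y axis, log2 change of PAMP RNA against mock) of the 7 tested genes at 1, 3 and 6 h (x axis), WT in blue and KO in orange; bars are 95% intervals and filled points passed the test. The KO points of Ppp1r15a stand above the WT points at each time, by 0.87, 0.67 and 0.67, and those of Sesn2 stand below them at 6 h by a difference of -0.59.

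Atf4, the central transcription factor of the pathway, was abundant in every library, and its mRNA changed little. At 1 h the WT libraries held 2743, 2651 and 2238 in mock and 2965, 2970 and 3009 with PAMP RNA. The groups did not overlap and the change was 0.23 (SE 0.06, adjusted p = 0.0262), but it was 0.14 (adjusted p = 0.515) without WT mock replicate 3, the library with 2238, and it missed the threshold without any 1 of the 3 PAMP libraries (adjusted p from 0.0821 to 0.106). In KO cells at 1 h the change was 0.09 (adjusted p = 0.765) and no difference between the genotypes passed the test (-0.14, 95% interval -0.31 to 0.02). At 3 h no response of Atf4 passed the test on the deposited scale, at 0.02 in WT and -0.09 in KO cells. It was lower under both other scalings at 3 h, by -0.22 in WT (adjusted p = 0.00296) and -0.41 in KO cells (adjusted p = 1.52e-07) after quantile normalization and by -0.15 (adjusted p = 0.021) and -0.34 (adjusted p = 2.23e-06) at equal totals. Relative to the median of all tested genes, the 3 h values at equal totals were 0.05 in WT and -0.05 in KO cells. At 6 h the WT libraries held 1557, 1744 and 1721 in mock and 2504, 2173 and 2326 with PAMP RNA, and the KO libraries 1727, 1513 and 1602 in mock and 2205, 2074 and 2166 with it. The groups did not overlap in either genotype, and the changes were 0.48 in WT (SE 0.06, adjusted p = 6.48e-10) and 0.41 in KO cells (SE 0.06, adjusted p = 1.85e-08) on the deposited scale. That direction rests on the scaling of the libraries: after quantile normalization the changes were 0.04 (adjusted p = 0.529) and -0.13 (adjusted p = 0.0584), and at equal totals 0.11 (adjusted p = 0.0904) and -0.07 (adjusted p = 0.24). Relative to the median of all tested genes they were 0.50 in WT and 0.44 in KO cells at equal totals, as against 0.15 and -0.0022 after quantile normalization. These values are mRNA levels, while the step of the pathway that acts on ATF4 is its translation, which was not measured.

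Ddit3, which encodes CHOP, a transcription factor that drives cell death under lasting stress, responded late. At 1 and 3 h its PAMP and mock libraries overlapped in both genotypes, and no change passed the test on the deposited scale (0.25 in WT at 1 h, adjusted p = 0.488). At equal totals the KO change at 3 h was -0.38 (adjusted p = 0.00269), or -0.10 relative to the median of all tested genes. At 6 h the WT libraries held 133, 153 and 140 in mock and 246, 285 and 241 with PAMP RNA, and the KO libraries 129, 111 and 99.6 in mock and 233, 298 and 268 with it. All PAMP libraries lay above all mock libraries, a rise of 0.85 in WT (SE 0.11, 1.81-fold, adjusted p = 3.94e-09) and 1.23 in KO cells (SE 0.11, 2.35-fold, adjusted p = 8.65e-14). The change in response from 3 to 6 h was 0.88 in WT (SE 0.16, adjusted p = 1.23e-05) and 1.37 in KO cells (SE 0.16, adjusted p = 7.83e-10). The difference between the genotypes at 6 h did not pass the test (0.38, 95% interval 0.06 to 0.69, adjusted p = 0.118). In mock cells at 6 h Ddit3 was lower in KO than WT by -0.33 (SE 0.11, adjusted p = 0.0429), a call lost without WT mock replicate 2 or 3 or KO mock replicate 2 or 3 (adjusted p from 0.0858 to 0.248). That call was also lost at equal totals (adjusted p = 0.0533), without the filter (adjusted p = 0.07) and with DESeq2 (adjusted p = 0.0684).

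Xbp1, the target of the endoplasmic reticulum sensor IRE1, encodes a factor that raises the folding capacity of the cell, and it is spliced when that sensor is active. A gene count does not separate the spliced from the unspliced form. At 6 h the WT libraries held 1452, 1597 and 1536 in mock and 1637, 1706 and 1679 with PAMP RNA, and the KO libraries 1511, 1536 and 1580 in mock and 1812, 1878 and 1765 with it. The groups did not overlap, and the changes were 0.13 in WT (SE 0.05, adjusted p = 0.0145) and 0.24 in KO cells (SE 0.05, adjusted p = 2.51e-05). Both turned under other scalings, to -0.27 and -0.27 after quantile normalization (adjusted p = 3.14e-06 and 2.19e-06) and to -0.24 and -0.25 at equal totals (adjusted p = 9.47e-06 and 4.2e-06). Relative to the median of all tested genes, Xbp1 stood at 0.15 in WT and 0.26 in KO cells at equal totals and at -0.16 and -0.14 after quantile normalization, so no direction is given for it. At 3 h no change of Xbp1 passed on the deposited scale, at -0.09 in WT and -0.11 in KO cells, except in WT cells without WT mock replicate 1 (-0.14, adjusted p = 0.0339) and in KO cells with edgeR (-0.12, adjusted p = 0.0376). Xbp1 was lower at 3 h under both other scalings, by -0.33 in WT (adjusted p = 7.4e-08) and -0.44 in KO cells (adjusted p = 5.26e-11) after quantile normalization and by -0.26 (adjusted p = 4.51e-06) and -0.36 (adjusted p = 4.97e-09) at equal totals, which stood at -0.06 and -0.07 relative to the median of all tested genes at equal totals. The WT call at 6 h also ended without WT mock replicate 1 (0.10, adjusted p = 0.109) and without WT PAMP replicate 2 (0.12, adjusted p = 0.0502).

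**Figure D3:**
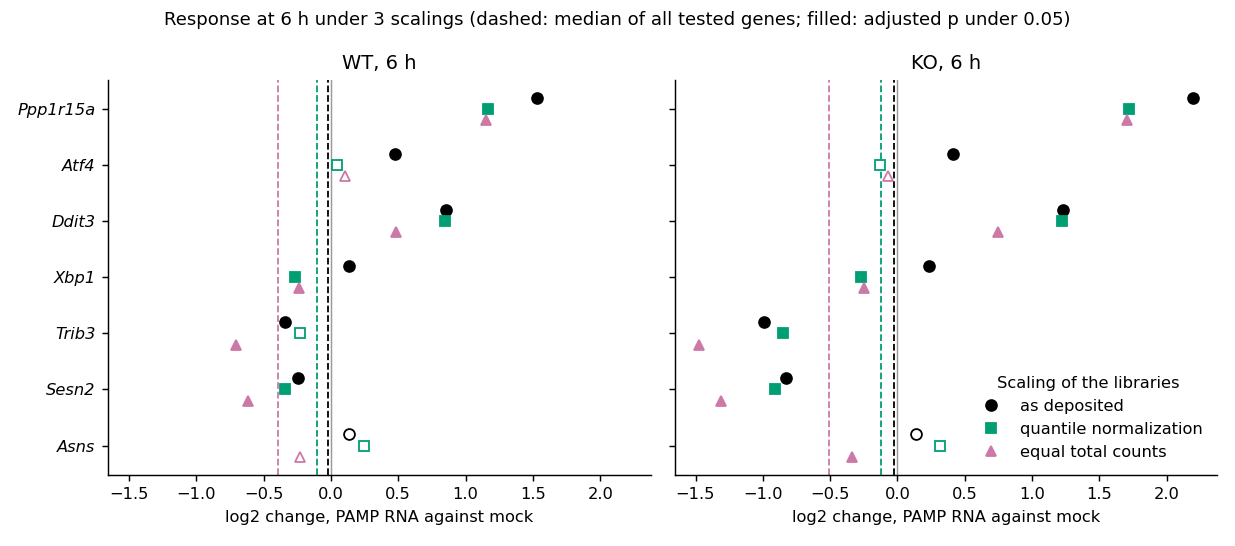
Response at 6 h (x axis, log2 change of PAMP RNA against mock) of the 7 tested genes under the deposited scale (black circles), quantile normalization (green squares) and equal totals (pink triangles), in WT (left) and KO (right); dashed lines are the medians of all tested genes and filled symbols passed the test. Ppp1r15a and Ddit3 stay above 0 under all 3 scalings, Sesn2 and Trib3 stay below, and Xbp1 moves from 0.13 to -0.27 in WT cells.

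Among the targets of ATF4, Trib3 fell. It encodes a pseudokinase that is induced by ATF4 and CHOP and restrains both. At 3 h the WT libraries held 81.8, 93.9 and 92.5 in mock and 42.6, 48.9 and 44.5 with PAMP RNA, and the KO libraries 92.7, 96.1 and 100.2 in mock and 60.4, 51.1 and 47.2 with it. The groups were far apart, with changes of -0.96 in WT (SE 0.15, adjusted p = 6.55e-07) and -0.86 in KO cells (SE 0.15, adjusted p = 4.39e-06). At 6 h the WT groups overlapped, with 54.5, 89.5 and 81.7 in mock and 71.9, 49.8 and 54.4 with PAMP RNA, whereas the KO groups did not, with 94.8, 101 and 106 against 53.2, 45.8 and 51.1. The change at 6 h was -0.34 in WT (SE 0.15, adjusted p = 0.0466) and -0.99 in KO cells (SE 0.15, adjusted p = 1.37e-07). The WT value lost its call without WT mock replicate 2 (-0.20, adjusted p = 0.299), without mock replicate 3 (-0.27, adjusted p = 0.174) and without PAMP replicate 2 (-0.23, adjusted p = 0.224) or 3 (-0.29, adjusted p = 0.131). It also lost it after quantile normalization (-0.23, adjusted p = 0.189), without the filter, with edgeR, with DESeq2 and with the replicate block (adjusted p from 0.0506 to 0.0843), and it was -0.71 (adjusted p = 4.74e-05) at equal totals. The difference between the genotypes at 6 h, -0.65 (SE 0.21, adjusted p = 0.0401), fell to -0.44 (adjusted p = 0.213) without WT mock replicate 1, the library with 54.5, and to -0.50 (adjusted p = 0.15) without WT PAMP replicate 1, and it missed the threshold without KO mock replicate 2 or 3 or KO PAMP replicate 2 or 3 (adjusted p from 0.0551 to 0.093).

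Sesn2, a stress-induced inhibitor of the growth kinase complex mTORC1, fell as well, and further in KO cells. At 3 h the WT libraries held 548, 578 and 523 in mock and 307, 328 and 331 with PAMP RNA, and the KO libraries 468, 491 and 473 in mock and 213, 228 and 247 with it. The changes were -0.77 in WT (SE 0.07, adjusted p = 1.9e-12) and -1.06 in KO cells (SE 0.07, adjusted p = 3.77e-17), with no overlap. At 6 h the WT libraries held 435, 528 and 538 in mock and 414, 415 and 435 with PAMP RNA, groups that touched, while the KO libraries held 494, 525 and 530 in mock and 265, 299 and 309 with it. The changes were -0.24 in WT (SE 0.07, adjusted p = 0.00402) and -0.83 in KO cells (SE 0.07, adjusted p = 6.84e-14). The responses differed between the genotypes by -0.59 at 6 h (SE 0.10, adjusted p = 9.61e-05) and by -0.29 at 3 h, which did not pass the test (95% interval -0.50 to -0.08, adjusted p = 0.148) except at equal totals (-0.36, adjusted p = 0.0399). With Ppp1r15a and Trib3, 3 of 7 members differed at 6 h, against 10.5% of all tested genes. Of all genes that differed, 63.6% were higher in KO cells as deposited, 41.6% after quantile normalization and 23.3% at equal totals. From 3 to 6 h the WT response moved back by 0.53 (SE 0.10, adjusted p = 7.08e-05) and the KO response by 0.23 (SE 0.10, adjusted p = 0.0772). The KO value passed the test without KO PAMP 3 h replicate 3 (0.28, adjusted p = 0.035) or KO PAMP 6 h replicate 1 (0.29, adjusted p = 0.0263), and whether the genotypes differ in this return was not tested.

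Genes induced by low oxygen fell at the same times as Trib3 and Sesn2. In mock cells from 1 to 3 h, 11 of 12 hypoxia-inducible genes rose in each genotype, with medians of 1.06 in WT and 1.31 in KO cells. Of all tested genes 21.3% rose in WT and 21.0% in KO cells over this step. Trib3 rose over it too, by 0.49 in WT and 0.60 in KO cells, whereas Sesn2 went the other way, by -0.31 and -0.26. With PAMP RNA all 12 hypoxia-inducible genes were lower than mock at 3 h in WT and 11 in KO cells, with medians of -0.91 and -1.02, and 10 of 12 were lower at 6 h in each. Of all tested genes 22.0% were lower in WT and 26.9% in KO cells at 3 h, and 33.3% and 36.5% at 6 h. Egln3, an oxygen-sensing prolyl hydroxylase that hypoxia induces, changed by -4.76 in WT and -5.57 in KO cells at 3 h (SE 0.19 each, adjusted p = 1.58e-26 and 1.93e-29). The responses of 4 of the 12 were lower in KO than in WT cells at 6 h and of none higher, where 3.81% of all tested genes were lower. After quantile normalization 6 were lower, against 4.48% of all, and at equal totals 8, against 10.5% of all. The part of oxygen supply in the changes of Trib3 and Sesn2 was not tested.

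Asns and Chac1, which are widely used as readouts of ATF4, did not pass the test in any response. Asns encodes the enzyme that makes asparagine. Its libraries at 6 h held 41.1, 42.9 and 55.6 in WT mock, 53.1, 46.2 and 53.1 in WT PAMP, 32.2, 39.7 and 49.3 in KO mock and 33.3, 48.7 and 52.3 in KO PAMP cells. The groups overlapped at every time, and the 6 h changes of 0.13 in WT (95% interval -0.19 to 0.46) and 0.14 in KO cells (-0.18 to 0.46) leave room for a small move either way. In KO cells at equal totals the 6 h change was -0.34 (adjusted p = 0.0478), where the median of all tested genes was -0.51, so that relative to this median Asns stood at 0.17 there as on the deposited scale. Chac1 degrades glutathione. Its highest group was WT PAMP at 1 h, with 17, 7 and 11 reads, against 6, 3 and 2 reads in WT mock. In a fit of all genes without the filter this was 1.32 (SE 0.50, adjusted p = 0.42), and Chac1 passed in no comparison, so that no change was detectable at this depth.

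Several of the genes moved with time in mock cells, where culture time and collection cannot be told apart. From 1 to 3 h 1 member rose and 4 fell in WT, where 43.5% of all tested genes changed, 21.3% upward and 22.2% downward. In KO cells 2 rose and 4 fell, where 42.9% changed, 21.0% upward and 21.8% downward. From 3 to 6 h none rose and 3 fell in each genotype, where 43.7% of all changed in WT, 22.0% upward and 21.7% downward, and 43.3% in KO cells, 21.9% upward and 21.4% downward. Atf4 fell by 0.41 and then by 0.19 in WT and by 0.52 and then by 0.21 in KO cells (SE 0.06 each). Xbp1 fell at each step too, by 0.40 and 0.39 in WT and by 0.56 and 0.33 in KO cells (SE 0.05 each). Asns fell at the second step, by 0.90 in WT (adjusted p = 8.95e-06) and by 1.12 in KO cells (SE 0.16 each, adjusted p = 1.48e-07). Trib3 rose from 1 to 3 h, by 0.49 in WT (adjusted p = 0.00668) and 0.60 in KO cells (SE 0.15 each, adjusted p = 0.00112). The Atf4 levels of 2074 to 2504 in PAMP libraries at 6 h thus lay within or below the 2238 to 2787 of mock libraries at 1 h. The first WT fall of Ddit3, -0.34 (SE 0.11, adjusted p = 0.0112), was -0.24 (adjusted p = 0.114) without WT mock 1 h replicate 2, and the second WT fall of Atf4 was -0.14 (adjusted p = 0.0686) without WT mock 6 h replicate 1. In KO cells Ddit3 changed by -0.50 from 1 to 3 h (SE 0.11, adjusted p = 0.000215). Sesn2 changed by -0.31 in WT and -0.26 in KO cells at that step (SE 0.07 each, adjusted p = 0.000492 and 0.00296). Ppp1r15a rose there by 0.33 in KO cells (SE 0.08, adjusted p = 0.000852). Its WT rise of 0.17 (adjusted p = 0.0888) did not pass, except after quantile normalization (0.23, adjusted p = 0.02) and without WT mock 1 h replicate 1 (0.27, adjusted p = 0.00903).

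Apart from Ppp1r15a, and from Ddit3 at 6 h with the limits given above, few genotype differences were found in the controls. At 1 h 2 of 7 members were lower in KO mock cells and none higher, where 11.6% of all tested genes differed, 4.34% higher and 7.28% lower. At 3 h 1 was lower and none higher, against 8.22% in all, 3.68% higher and 4.54% lower. At 6 h 1 was higher and 2 were lower, against 11.0% in all, 5.00% higher and 6.04% lower. Besides Ppp1r15a, Sesn2 was lower in KO cells at 1 h by -0.25 (SE 0.07, adjusted p = 0.0165), a call lost without WT mock replicate 3 (-0.22, adjusted p = 0.0986) or KO mock replicate 2 (-0.20, adjusted p = 0.131). Xbp1 passed in KO cells at 1 h, at 0.17 (adjusted p = 0.0205), once WT mock replicate 1 was left out, and at 0.15 (adjusted p = 0.0213) after quantile normalization. Sesn2 passed at 3 h after quantile normalization (-0.23, adjusted p = 0.0361) and with edgeR (-0.21, adjusted p = 0.0309). Trib3 was higher in KO cells at 6 h by 0.44 (SE 0.15, adjusted p = 0.0496), which became 0.23 (adjusted p = 0.454) without WT mock replicate 1 and was also lost without any 1 of the 3 KO libraries (adjusted p from 0.0694 to 0.155). A pseudocount of 0.5 (adjusted p = 0.0503), no filter (adjusted p = 0.0845) and DESeq2 (adjusted p = 0.0516) ended this Trib3 call as well.

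Between times, the responses of 3 of 7 members were lower at 3 than at 1 h in WT cells, where 29.1% of all tested genes changed, 15.9% upward and 13.2% downward, and of 2 in KO cells, where 38.5% changed, 19.7% upward and 18.8% downward. At equal totals these counts were 5 and 6, and after quantile normalization the KO count was 5. From 3 to 6 h the responses of 5 members were higher and of 1 lower in WT, where 34.3% of all changed, 19.3% upward and 15.0% downward. In KO cells 3 were higher and 1 lower, where 40.8% changed, 22.8% upward and 18.1% downward. The drop from 1 to 3 h was led by Trib3, at -0.95 in WT (adjusted p = 0.000427) and -1.06 in KO cells (SE 0.21 each, adjusted p = 6.36e-05), and by Sesn2, at -0.77 (adjusted p = 4.59e-08) and -1.10 (SE 0.10 each, adjusted p = 1.81e-12). The third WT member was Atf4, at -0.21 (SE 0.08, adjusted p = 0.0469), which was -0.12 (adjusted p = 0.258) without WT mock 1 h replicate 3 and missed the threshold without any 1 of the 3 WT PAMP libraries at 1 h or at 3 h (adjusted p from 0.0564 to 0.107) or without WT mock 3 h replicate 2 or 3. In WT cells the Trib3 response moved back by 0.62 from 3 to 6 h (SE 0.21, adjusted p = 0.0203), or by 0.41 (adjusted p = 0.136) without WT mock 6 h replicate 1 and by 0.47 (adjusted p = 0.0993) without WT PAMP 6 h replicate 1. That of Xbp1 moved by 0.22 (SE 0.07, adjusted p = 0.0104), or by 0.18 (adjusted p = 0.0503) without WT mock 3 h replicate 2, 0.06 (adjusted p = 0.488) after quantile normalization and 0.02 (adjusted p = 0.822) at equal totals.

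The rest of the pathway was read from lists of its genes, whose counts stand beside the shares of all tested genes given above. After quantile normalization the 6 h shares were 26.2% upward and 39.6% downward in WT and 28.2% and 42.7% in KO cells. At equal totals they were 16.4% and 62.4% in WT and 16.9% and 66.5% in KO cells. Upstream, 8 of 18 genes for the eIF2alpha kinases, eIF2, eIF2B and the phosphatase rose and 6 fell at 6 h in each genotype, with list medians of 0.06 in WT and -0.0072 in KO cells, against -0.02 and -0.03 for all tested genes. Quantile normalization gave 6 higher and 10 lower in WT and 5 and 9 in KO cells, and equal totals 5 and 11 in WT and 4 and 11 in KO cells. Eif2ak2, the kinase PKR and a known interferon-induced gene, rose from a mean of 426 to 2898 in WT cells at 3 h, by 2.77 (SE 0.07, adjusted p = 3.77e-34), and by 3.07 in KO cells (SE 0.07, adjusted p = 4.37e-36). Eif2ak3, the kinase PERK, went the other way, from 379 to 163 in WT cells at 6 h (-1.22, SE 0.09, adjusted p = 1.36e-16) and from 390 to 132 in KO cells (-1.56, SE 0.09, adjusted p = 1.52e-20). The kinase gene Eif2ak4 also fell, by 0.63 in each genotype at 6 h (SE 0.10). Ppp1r15b, the constitutive counterpart of Ppp1r15a, rose by 0.75 in WT and 1.00 in KO cells at 6 h (SE 0.05 each), and Eif2s1, which encodes eIF2alpha itself, by 0.82 and 0.96 (SE 0.06 each). These directions held after quantile normalization and at equal totals.

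**Figure D4:**
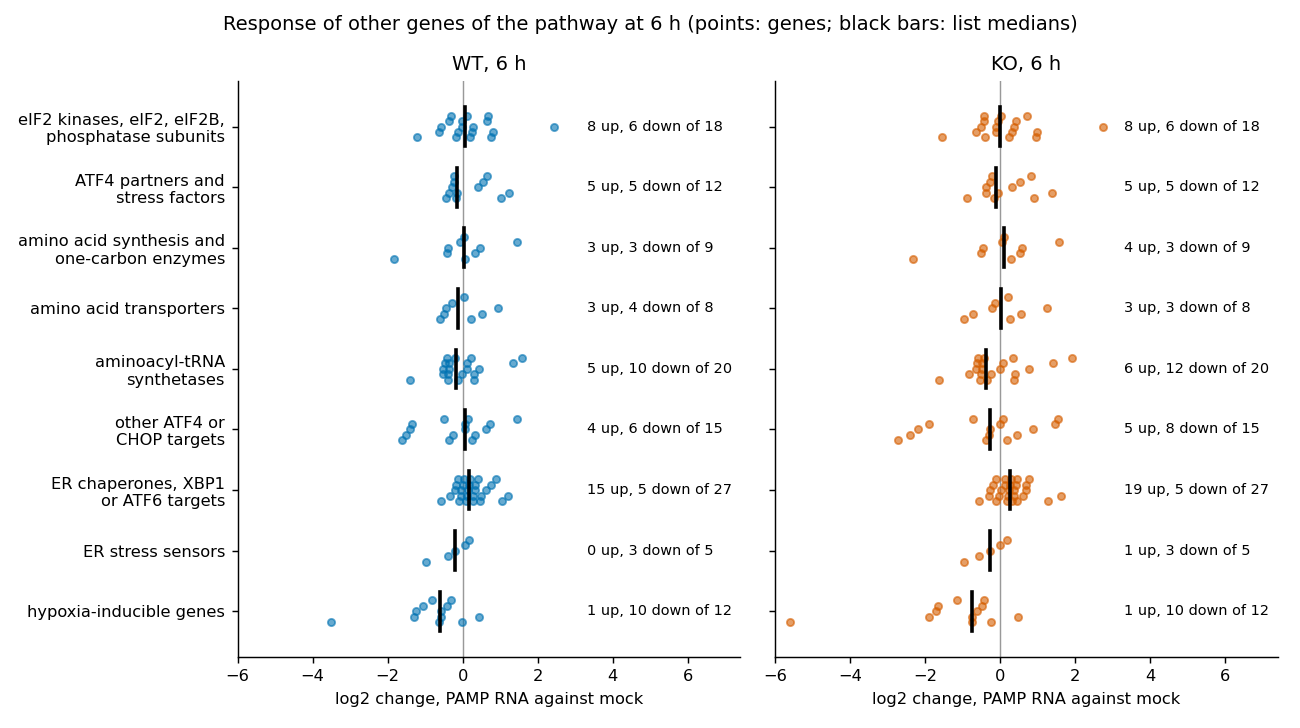
Response at 6 h (x axis, log2 change of PAMP RNA against mock, deposited scale) of each tested gene of 9 lists, WT (left) and KO (right); points are genes, black bars list medians, and the text gives the genes that passed the test. In the list of eIF2 kinases the point farthest to the right is Eif2ak2, at 2.44 in WT and 2.75 in KO cells.

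Among the partners of ATF4 and other stress factors, 5 of 12 rose and 5 fell at 6 h in each genotype on the deposited scale, as against 3 and 6 in WT and 3 and 7 in KO cells after quantile normalization and 2 and 7 in each at equal totals. Atf3, an early stress factor downstream of ATF4, rose from a mean of 3328 to 7744 in WT (1.22, SE 0.05, adjusted p = 1.15e-24) and from 3256 to 8582 in KO cells (1.40, SE 0.05, adjusted p = 3.79e-27). Jun rose already at 1 h, by 0.96 in WT (SE 0.10, adjusted p = 2.55e-10) and 1.34 in KO cells (SE 0.10, adjusted p = 3.16e-15). Cebpa and Jdp2, which encode 2 further factors of the same leucine zipper class, fell at 3 h, Jdp2 by 1.00 in WT and by 1.25 in KO cells (SE 0.14 each).

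Lists of amino acid enzymes, amino acid transporters and tRNA synthetases, which were not limited to targets of ATF4, each held genes that rose and genes that fell. Of 9 tested enzymes of amino acid synthesis and one-carbon metabolism, 3 rose and 3 fell in WT at 6 h, and 4 rose and 3 fell in KO cells. Mthfd2, a mitochondrial folate enzyme, rose by 1.45 in WT and 1.57 in KO cells (SE 0.06 each), while Mthfd1l, which acts in the same folate path, fell by 1.83 and by 2.32 (SE 0.12 each). Psat1 and Phgdh, enzymes of serine synthesis, passed the test upward at 6 h in each genotype on the deposited scale but not at equal totals, where Phgdh was -0.05 in WT cells. Of 8 amino acid transporters, 3 rose and 4 fell in WT and 3 rose and 3 fell in KO cells at 6 h. Slc3a2, the shared heavy chain of several of them, rose by 0.95 and 1.24 (SE 0.05 each), and Slc7a6 fell by 0.60 and by 0.95 (SE 0.10 each). Of 20 cytosolic tRNA synthetases, 5 rose and 10 fell in WT, and 6 rose and 12 fell in KO cells at 6 h. Wars, which is also known as an interferon-induced gene, rose by 1.58 and 1.91 (SE 0.05 each) and Rars by 1.35 and 1.41 (SE 0.08 each), whereas Iars fell by 1.40 and by 1.62 (SE 0.09 each). At equal totals 1 of the enzymes rose and 6 fell in WT and 1 rose and 5 fell in KO cells, 1 transporter rose in each and 6 and 5 fell, and 2 and 3 synthetases rose and 14 fell in each, while the genes named here with values at 6 h other than Psat1 and Phgdh kept their direction and call under both other scalings. Asns thus stood beside lists of amino acid genes that moved in both directions.

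Other targets of ATF4 or CHOP also moved both ways, with 4 of 15 higher and 6 lower in WT and 5 higher and 8 lower in KO cells at 6 h as deposited, and with 3 higher in each genotype and 10 and 11 lower at equal totals. Gdf15, a stress cytokine, rose at 1 h, by 0.63 in WT (SE 0.15, adjusted p = 0.0168) and 0.85 in KO cells (SE 0.15, adjusted p = 0.00014). Cdkn1a, a cell cycle inhibitor, rose by 1.45 in WT and 1.54 in KO cells at 6 h (SE 0.06 each), and Chac2, a relative of Chac1, rose by 0.72 and 1.46 (SE 0.14 each). Ddit4, Ero1l and Vegfa, which low oxygen induces as well, fell at 3 h in WT cells by 2.89, 1.97 and 1.25 (SE 0.23, 0.13 and 0.12). Sesn1, a relative of Sesn2, changed by -1.51 in WT and -2.17 in KO cells at 6 h (SE 0.10 each). On the deposited scale the responses of 5 of these 15 genes were lower in KO than in WT cells at 6 h and of 1 higher. Of all tested genes 3.81% were lower and 6.67% higher there. These shares depend on scaling, with 4.48% lower and 3.20% higher after quantile normalization and 10.5% and 3.21% at equal totals. The count for the list under those scalings is not given here.

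For the arm of Xbp1, 15 of 27 chaperones and other targets of XBP1 or ATF6 rose and 5 fell in WT at 6 h, with a median of 0.16, and 19 rose and 5 fell in KO cells, with a median of 0.28, on the deposited scale. The balance turned under other scalings, to 6 higher and 13 lower in WT and 8 higher and 14 lower in KO cells after quantile normalization, and to 5 and 16 and to 5 and 18 at equal totals. All tested genes moved the same way, in WT cells to 26.2% upward and 39.6% downward after quantile normalization and to 16.4% and 62.4% at equal totals. The turn under these scalings is therefore no result about the list in itself. Hspa5 (BiP), the main chaperone of the endoplasmic reticulum, rose under all 3, from a mean of 4955 to 11500 in WT (1.21, SE 0.05, adjusted p = 2.3e-27) and from 4511 to 13830 in KO cells (1.62, SE 0.05, adjusted p = 1.33e-32) as deposited. Dnajb11, its co-chaperone, rose by 1.06 in WT and 1.27 in KO cells (SE 0.05 each). Herpud1, a part of the degradation machinery that is usually induced by the same stress, fell by 0.61 in WT and by 0.92 in KO cells at 3 h (SE 0.06 each). Among 5 tested sensors, Ern1 (IRE1) fell by 0.97 in WT and by 0.96 in KO cells at 6 h (SE 0.10 each).

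Over the 12 group means, each gene was also matched with the 2 genes of most similar pattern among those with a mean of at least 50. These correlations describe 12 points that share libraries and the same time course, and genes of a strong course find close matches easily. Ppp1r15a was closest to Phlda1 (r = 0.988) and Ifnb1 (r = 0.979), the gene of interferon beta. Ddit3 was closest to Nfe2l2 (r = 0.966) and Suco (r = 0.965), Atf4 to Fbxo45 (r = 0.975) and Plk3 (r = 0.974), and Xbp1 to Zfp91 (r = 0.988) and Abhd5 (r = 0.988). Trib3 was closest to Ppp1r3b (r = 0.965) and Pgp (r = 0.965), Sesn2 to Bhlhe40 (r = 0.982) and Mtss1 (r = 0.981), Asns to Nudcd2 (r = 0.982) and Dlst (r = 0.980), and Chac1 to Snhg3 (r = 0.877). None of the 8 genes was among the closest matches of another. Among the 7 tested genes the closest pair was Atf4 with Xbp1 (r = 0.868), while Ppp1r15a and Trib3 ran in opposite directions (r = -0.688).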

How the data were processed

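RNA sequencing libraries, 3 in each of 12 groups, were made with kits that do not mark the strand. The deposited values are a signal, read counts that the authors divided by 1 size factor per library. Per the submitters' processing notes, TopHat, Cufflinks, DESeq2 and GRCm38 (mm10) were used. Their versions and roles, and the annotation, are not given in the sources used. Every value was a whole multiple of its library's smallest step within 0.01 read (100%), so whole reads were recovered.

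Genes averaging 10 or more (11853) were taken as log2(normalized count + 1). The limma-trend model (limma version 3.58.1 under R 4.3.3) was fitted to 12 group means with 24 residual degrees of freedom and 20 contrasts, after a check on simulated data. Tests are two-sided, adjusted over all tested genes in each contrast. Fold changes on this scale understate those of low genes. Alternatives were quantile normalization, equal totals, pseudocounts of 5 and 0.5, no filter, edgeR (version 4.0.16) and DESeq2 (version 1.42.0) on recovered reads, a replicate block, and leaving out each of 36 libraries.

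The 8 genes and all lists were chosen with earlier results of these data known. All 8 are described, whatever their result. From each list, up to 3 genes that rose and 3 that fell with the largest change in each response could be named, from those with a mean of at least 50. The labels call the 3 libraries of a group biological triplicates without saying whether they came from separate mice, so the p-values reflect the spread among these libraries, which may be technical. The result of 1 marker list is not reported here.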

Additional observations from a re-analysis of the deposited data

Results flagged for a closer look

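The following responses differed between WT and KO cells by a test of the difference itself, the KO response minus the WT response in log2 units. For Ppp1r15a this difference was 0.87 at 1 h, 0.67 at 3 h and 0.67 at 6 h, and leaving out single libraries gave 0.77 to 0.93, 0.54 to 0.75 and 0.59 to 0.77. For Sesn2 it was -0.59 at 6 h, with -0.64 to -0.49 when single libraries were left out. For Trib3 it was -0.65 at 6 h, with -0.79 to -0.44 when single libraries were left out. Leaving out any 1 of 6 libraries ended its call, and it did not pass the test under 4 other settings (quantile normalization, no filter, edgeR and DESeq2). The reads of Dhx58 in KO mock libraries go against the genotype label on which these directions rest, whereas with PAMP RNA Dhx58 reached 3066 in WT and 1012 in KO libraries. Groups of 3 libraries are too small for a search for single outlying libraries.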

How the results depend on the processing

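Of 2248 values of members under alternatives, 2130 kept their side of the threshold, and their direction too where either value passed the test. Sign changes between values that both missed the threshold were not counted and lie among the 2130. Another 75 kept the direction but lost the call, 34 gained one and 9 changed sign. Those 9 came from scaling. After quantile normalization they were Atf4 at -0.22 in WT at 3 h and -0.13 in KO at 6 h, and Xbp1 at -0.27 in WT and -0.27 in KO at 6 h. At equal totals they were Atf4 at -0.15 in WT at 3 h and -0.073 in KO at 6 h, Xbp1 at -0.24 in WT and -0.25 in KO at 6 h, and Asns at -0.34 in KO at 6 h. The cause was not tested. The responses of Ppp1r15a at 1, 3 and 6 h, of Ddit3 at 6 h and of Sesn2 at 3 and 6 h kept direction and call under all 8 settings and without any single library of their contrast.

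Counts of members that moved were, after quantile normalization, 5 in the WT and 5 in the KO response at 3 h, 2 for KO against WT mock at 3 h and 5 for the change of the KO response from 1 to 3 h. At equal totals they were 5 and 6 in the WT and KO responses at 3 h, 2 for the genotype difference at 3 h, and 5 and 6 for the change of the WT and KO responses from 1 to 3 h, where 5492 and 6941 of all genes passed. Without a filter, which adds genes to the adjustment, 1 member passed in WT at 1 h and 1 in mock at 6 h between genotypes. That mock comparison held 1 member with DESeq2, and the one at 3 h 2 with edgeR. For the genotype difference, 238 of all genes passed at 3 h after quantile normalization and 9 at 1 h with edgeR. Leaving out single libraries gave 1 to 2 members in WT at 1 h, 1 to 3 and 1 to 2 members between mock genotypes at 1 and 6 h with 855 to 1108 of all genes at 6 h against 1309 with all libraries (855 without KO mock replicate 2), and 237 to 417 genes for the genotype difference at 3 h (237 without WT mock replicate 2 and 240 without WT PAMP replicate 1, 372 with all).

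The labels do not say whether libraries with the same replicate number belong together. The median correlation of residuals between same-numbered libraries was 0.002, with extremes of -0.11 and 0.18. Of 36 libraries 12 correlated best with a library that had their number. A small effect shared by same-numbered libraries could go unseen in this check. With the replicate block Trib3 lost its call in WT at 6 h (-0.34, adjusted p = 0.052) and between mock genotypes at 6 h (0.44, adjusted p = 0.0562). No other member changed its call under the block. Depth limited Chac1, with at most 17 reads in a library.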
